A study of Homo sapiens with 12 samples.

Results

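The hypoxia and glycolysis genes described here are 40 human genes chosen by name: targets of the hypoxia-inducible factors (HIF), enzymes of glycolysis, and regulators that connect low oxygen with metabolism. The rule for membership uses names and no measured value, but the members were chosen with earlier results of these data known. A probe set, the group of short array oligos that reports 1 transcript, was found for 39 of the 40 and was above the filter for low signal for all 39, among 13838 genes tested of 19775 with a named probe set. CA9, a carbonic anhydrase, could not be matched to a probe set by symbol and is not analysed here.

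RNA came from 2 human lung adenocarcinoma cell lines, CL1-0 and CL1-5, the latter known as a more invasive subline of the former. Cells of all groups were grown overnight in a microfluidic chip in DMEM with fetal bovine serum, then kept for 2 h in DMEM without serum, with or without a direct-current electric field (300 against 0 mV/mm). All were then detached with trypsin and held in RNAlater before extraction. The labels call the 3 arrays of each of the 4 groups biological replicates: CL1-0 without field, CL1-0 under field, CL1-5 without field and CL1-5 under field. The design asks how the field changes each line and how the lines differ. Whole cultures were measured, so a higher level in each cell and more cells with the transcript cannot be told apart.

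HIF is a transcription factor made of an oxygen-labile alpha subunit and a stable partner. With oxygen, prolyl hydroxylases of the EGLN family mark the alpha subunit for degradation; without it the factor binds DNA at a short core element and raises glucose uptake, glycolysis, vessel growth factors and its own EGLN inhibitors. Tumour cells often run glycolysis with oxygen present, and in lung adenocarcinoma the pathway has been studied for its part in growth and invasion.

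Because the core of the hypoxia response element is a fixed word, the start regions of the members can be shown beside their signals. The RefSeq promoter table for GRCh38.p14 held 34 of the 39 measured members. In the 250 bases upstream of the start, ACGTG or GCGTG was found on either strand in 25 of 34 windows (73.5%), against 43.2% of all 35116 promoters in the table. ACGTG alone was found in 18 of 34 windows (52.9%) against 18.5% of all promoters. It overlaps the E-box CACGTG, a word read by other factors, which was found in 6 of 34 windows (17.6%) against 6.3%. The windows of the members had a GC content of 67.8%, against 57.2% over all promoters, and both words are GC-rich. Members were chosen in part as HIF targets, so a higher share of the HIF core may come with the choice of list. The windows of 6 members named below are printed, all picked from those with a match, so they do not stand for the whole list. ADM and DDIT4 had the smallest p-values for the field in CL1-5, ENO2 and P4HA1 were called higher in CL1-5, and EGLN1 was called lower. ANKRD37 has 3 matches that include an E-box, which reads as ACGTG on both strands. Sequences run 5′ to 3′ along the strand of the gene and end at the base before its start, with the matches in capitals (CACGT and CACGC are the same words on the other strand).
ADM (chr11:10304823-10305072, plus strand): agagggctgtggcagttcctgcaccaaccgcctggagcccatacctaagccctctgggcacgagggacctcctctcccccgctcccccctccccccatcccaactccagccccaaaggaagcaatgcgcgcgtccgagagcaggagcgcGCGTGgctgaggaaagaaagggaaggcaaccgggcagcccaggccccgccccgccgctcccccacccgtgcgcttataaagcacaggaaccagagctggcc
DDIT4 (chr10:72273674-72273923, plus strand): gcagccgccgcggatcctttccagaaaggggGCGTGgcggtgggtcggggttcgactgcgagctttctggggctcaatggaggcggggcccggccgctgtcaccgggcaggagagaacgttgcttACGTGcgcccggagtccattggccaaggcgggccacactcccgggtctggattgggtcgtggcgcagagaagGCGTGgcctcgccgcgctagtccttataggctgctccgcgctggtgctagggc
ENO2 (chr12:6914330-6914579, plus strand): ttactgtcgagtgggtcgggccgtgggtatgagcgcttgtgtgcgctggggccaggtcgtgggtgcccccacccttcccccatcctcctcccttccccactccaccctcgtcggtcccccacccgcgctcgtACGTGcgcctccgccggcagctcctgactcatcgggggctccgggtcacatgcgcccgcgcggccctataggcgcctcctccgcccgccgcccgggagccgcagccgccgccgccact
P4HA1 (chr10:73096867-73097116, minus strand): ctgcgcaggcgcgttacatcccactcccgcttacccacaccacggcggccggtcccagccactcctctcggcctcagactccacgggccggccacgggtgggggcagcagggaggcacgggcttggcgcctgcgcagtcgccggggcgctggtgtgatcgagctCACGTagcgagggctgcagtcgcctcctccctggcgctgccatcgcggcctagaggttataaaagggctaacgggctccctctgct
EGLN1 (chr1:231422288-231422537, minus strand): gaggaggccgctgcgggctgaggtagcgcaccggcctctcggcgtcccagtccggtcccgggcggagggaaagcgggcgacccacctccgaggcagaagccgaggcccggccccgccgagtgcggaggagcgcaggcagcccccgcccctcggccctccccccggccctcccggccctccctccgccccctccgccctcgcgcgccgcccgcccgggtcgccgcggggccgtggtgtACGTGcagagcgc
ANKRD37 (chr4:185396591-185396840, plus strand): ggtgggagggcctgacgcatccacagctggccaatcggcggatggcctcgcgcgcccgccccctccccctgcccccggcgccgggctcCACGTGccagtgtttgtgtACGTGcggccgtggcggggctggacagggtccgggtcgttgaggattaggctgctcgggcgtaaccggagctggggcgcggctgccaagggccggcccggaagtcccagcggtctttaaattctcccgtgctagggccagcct
The lone match of EGLN1 began 13 bases before the start, that of P4HA1 86, that of ADM 101 and that of ENO2 118. DDIT4 has 3 matches, from 53 to 219 bases before the start. The windows of EGLN3 and SLC2A1, both called between the lines, held neither word. A match is a description of the letters, not of binding. In CL1-5 the median field difference was 0.18 on the log2 scale for the 18 members with ACGTG and 0.28 for the 16 without. These values are given with no test. They and the shares of windows leave out HILPDA, NDRG1, VEGFA, SLC2A3 and BNIP3L, which had no entry. NDRG1 and SLC2A3 had the largest line differences of the members.

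Signals are linear array intensities, taken to log2. The median signal of an array lay between 60.7 and 72.4. On the 4 replicate 1 arrays, 1 in each group, the spike-in control dap read 1.37 to 13.3 and 18S ribosomal RNA 49.7 to 134. The remaining 8 arrays read 1644 to 2333 and 5577 to 8406. Replicate 1 of CL1-5 under field also stood apart, with 45 values under 1 against 227 to 415 on the arrays of replicates 2 and 3, and the highest ratio of 3′ to 5′ actin signal, 1.54 against 1.21 to 1.32 on those arrays. Lung markers were weak: of 6 (NKX2-1, NAPSA, SFTPB, SFTPC, SFTA2 and SCGB1A1), 2 in CL1-0 and 3 in CL1-5 were above the array median on all arrays of a group, with sums of 514 to 666 in CL1-0 and 339 to 551 in CL1-5. Of 6 general epithelial markers 5 were above it in CL1-0 and 3 in CL1-5, where EPCAM and CDH1 had means of 4.86 to 5.90, with sums of 3190 to 24684 in CL1-0 and 16367 to 32651 in CL1-5. Of the 6 fibroblast markers 1 or 2 were above it, with sums of 417 to 645 over all groups, and 0 of 4 leukocyte markers, with sums of 91.3 to 182. The 5 endothelial markers summed to 181 to 230 in CL1-0 and 372 to 1788 in CL1-5, with 1 or 2 above it, led by PECAM1, while CDH5 and VWF had means of 2.23 to 4.51. The part of any of these in the line differences was not tested.

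The clearest differences were between the lines. Without a field, 6 members were higher and 2 lower in CL1-5 than in CL1-0: NDRG1, EGLN3, ENO2, PFKFB3, SLC2A1 and DDIT4 were higher, and SLC2A3 and EGLN1 lower. Under the field the same 8 differed in the same direction, and STC2, P4HA1 and ERO1A were higher as well, making 9 higher and 2 lower. The 2 comparisons share no arrays. The test was limma over all genes with a Benjamini-Hochberg adjusted p under 0.05. It called 18% of all genes without a field, 9.04% higher and 8.93% lower, and 19.4% under it, 9.83% higher and 9.62% lower. The members' shares were 20.5% and 28.2%, so that without a field the share was near that of all genes. All arrays of 1 line lay above those of the other for 10 members without a field (25.6%) and 15 under it (38.5%), against 34% and 35.8% of all genes. The median difference of the members was 0.15 on the log2 scale without a field and 0.38 under it, against −0.03 and −0.08 over all genes. Leaving out 1 array in turn gave 6 to 10 calls without a field and 6 to 14 under it, where 6 were left without either of replicates 2 and 3 of CL1-0 under field or replicate 3 of CL1-5 under field, and 7 without replicate 1 of CL1-5 under field. The median without a field was −0.09 without replicate 1 of CL1-5 and 0.40 without its replicate 2, and the median under the field was 0.11 without replicate 1 of CL1-5 under field and 0.63 without its replicate 2.

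Arrays of the same replicate number varied together: their deviations from the group means correlated at 0.19 to 0.61 in all 18 pairs that share a number. For replicate 3 the own number gave the highest correlation in only 3 of 6 pairs of groups. With the replicate number as a block the counts rose to 12 higher and 3 lower without a field (all genes 16.7% higher and 18.8% lower, 35.6% in all) and 17 higher and 3 lower under it (all genes 17.4% higher and 20.8% lower, 38.1% in all). The members' shares in that fit were 38.5% and 51.3%. P4HA1, ERO1A, STC2, VEGFA, HK1 and PKM were added as higher and KDM3A as lower without a field. Under the field ANGPTL4, VEGFA, HK1, ADM, MXI1, PKM, PFKFB4 and GPI were added as higher and TPI1 as lower.

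**Figure D1:**
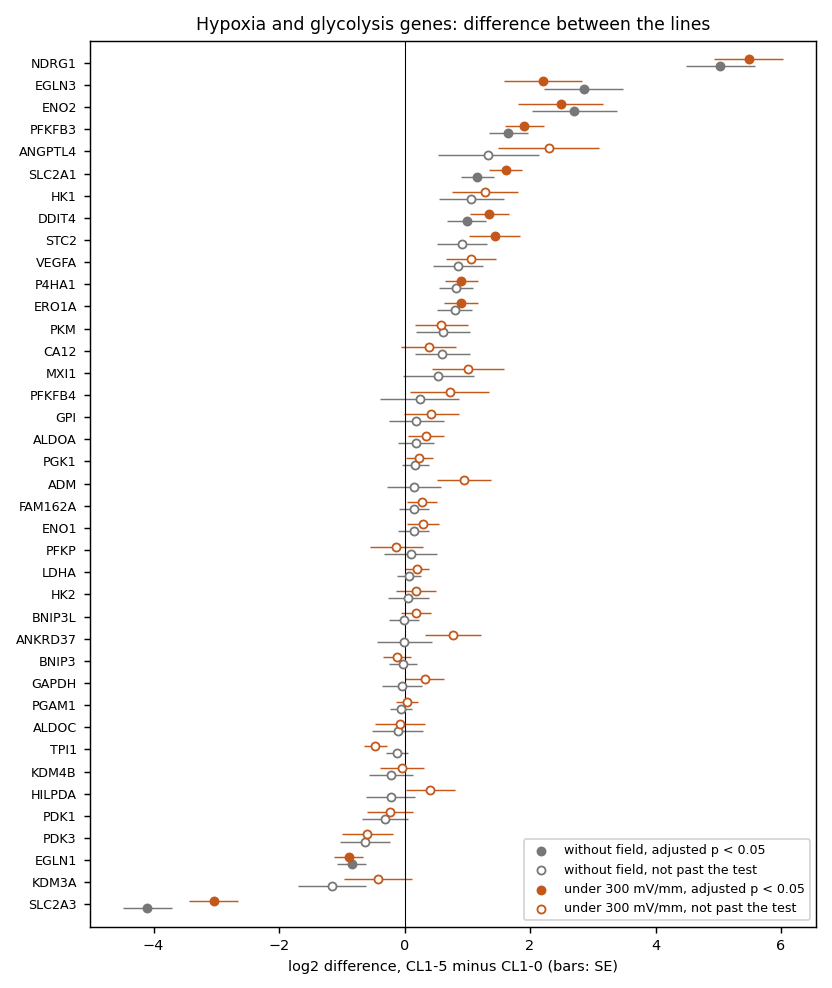
Difference between CL1-5 and CL1-0 (log2, horizontal axis) for the 39 measured members, without a field (grey) and under 300 mV/mm (orange), with SE bars from the limma fit. Filled points passed an adjusted p of 0.05 without the replicate block: 8 members without a field and 11 under it, with NDRG1 far to the right and SLC2A3 far to the left.

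Among the secreted factors, the growth and vessel signals of the pathway, STC2 (stanniocalcin 2, a glycoprotein hormone of the stress response) was the member called. Its log2 signal was 10.34, 9.95 and 10.50 on the 3 arrays of CL1-0 without field and 11.998, 10.49 and 11.05 in CL1-5, and 10.78, 10.02 and 10.47 against 12.47, 11.19 and 11.91 under the field. The groups overlapped without a field, and under it all 3 CL1-5 arrays were above all 3 CL1-0 arrays. The difference was 0.91 ± 0.40 (SE, adjusted p = 0.150, with the block 0.00389) without a field and 1.43 ± 0.40 (adjusted p = 0.0258) under it. That call ended when replicate 2 or 3 of CL1-0 under field was left out or replicate 1 or 3 of CL1-5 under field (adjusted p = 0.0666 to 0.102), and with the mean of its probe sets (0.14). ANGPTL4, an inhibitor of lipoprotein lipase, had the widest spread of all members in CL1-5: 12.05, 8.28 and 10.24 without a field and 12.46, 9.91 and 11.52 under it, against 8.33 to 9.31 on the CL1-0 arrays. Its difference under the field, 2.30 ± 0.80, had an adjusted p of 0.0665 and with the block 0.00586. VEGFA, the main vessel growth factor, differed by 0.85 ± 0.40 (adjusted p = 0.177, with the block 0.0371) and 1.07 ± 0.40 (0.0848, with the block 0.0120), and ADM, the vasodilator peptide adrenomedullin, by 0.15 ± 0.43 (0.869, with the block 0.748) and 0.95 ± 0.43 (0.155, with the block 0.0324).

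Among the stress-induced regulators, NDRG1, a stress and differentiation protein, had the largest difference of all members. Its probe set read 9.13, 9.29 and 8.70 in CL1-0 and 15.36, 12.83 and 14.01 in CL1-5 without a field, and 9.17, 9.11 and 9.08 against 15.59, 13.80 and 14.41 under it. The lines did not overlap, and within CL1-5 replicate 1 was highest and replicate 2 lowest with and without a field. CL1-5 was higher by 5.03 ± 0.55 (32.7-fold, adjusted p = 5.94e-05) without a field and by 5.48 ± 0.55 (44.8-fold, adjusted p = 3.36e-05) under it. DDIT4, an inhibitor of mTORC1 induced by low oxygen and other stress, read 11.96, 11.96 and 12.70 in CL1-0 and 13.69, 12.99 and 12.90 in CL1-5 without a field, a difference of 0.99 ± 0.31 (adjusted p = 0.0458). Under the field it read 12.55, 12.38 and 12.62 against 14.49, 13.36 and 13.76, a difference of 1.35 ± 0.31 (adjusted p = 0.00934). There was no overlap in either setting. The first of these calls was borderline: it ended in 13 of 23 alternatives, among them the fit without any 1 of the 3 CL1-5 arrays without field or replicates 1 or 2 of CL1-0 without field (adjusted p = 0.0588 to 0.147), and without any 1 of the 3 CL1-0 arrays under field or replicate 3 of CL1-5 under field, which set only the common spread (0.057 to 0.0642). The call under the field held in all 23. HILPDA, a lipid droplet protein that blocks lipolysis, differed by −0.22 ± 0.39 and 0.41 ± 0.39 and was not called.

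The 2 glucose transporters differed in opposite directions. SLC2A3, the high-affinity transporter GLUT3, read 14.72, 14.55 and 14.64 in CL1-0 and 11.55, 9.79 and 10.25 in CL1-5 without a field, and 14.65, 13.90 and 14.25 against 11.48, 10.66 and 11.53 under it. Every CL1-5 array was below every CL1-0 array. The difference was −4.10 ± 0.39 (17.2-fold lower, adjusted p = 2.28e-05) without a field and −3.04 ± 0.39 (8.24-fold lower, adjusted p = 0.000211) under it. SLC2A1, the widespread transporter GLUT1, read 10.18, 10.05 and 10.05 in CL1-0 and 11.46, 11.18 and 11.10 in CL1-5 without a field, and 10.20, 10.01 and 9.89 against 12.27, 11.11 and 11.56 under it. Here every CL1-5 array was above every CL1-0 array. The difference was 1.16 ± 0.26 (2.23-fold, adjusted p = 0.00946) and 1.61 ± 0.26 (3.06-fold, adjusted p = 0.00115). The calls of NDRG1, both transporters and PFKFB3 held in all 23 alternatives. CA12, a membrane carbonic anhydrase that acidifies the space outside the cell, lay between 6.11 and 7.70 on all arrays, near the array median, and was not called (0.60 ± 0.44 and 0.38 ± 0.44).

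**Figure D2:**
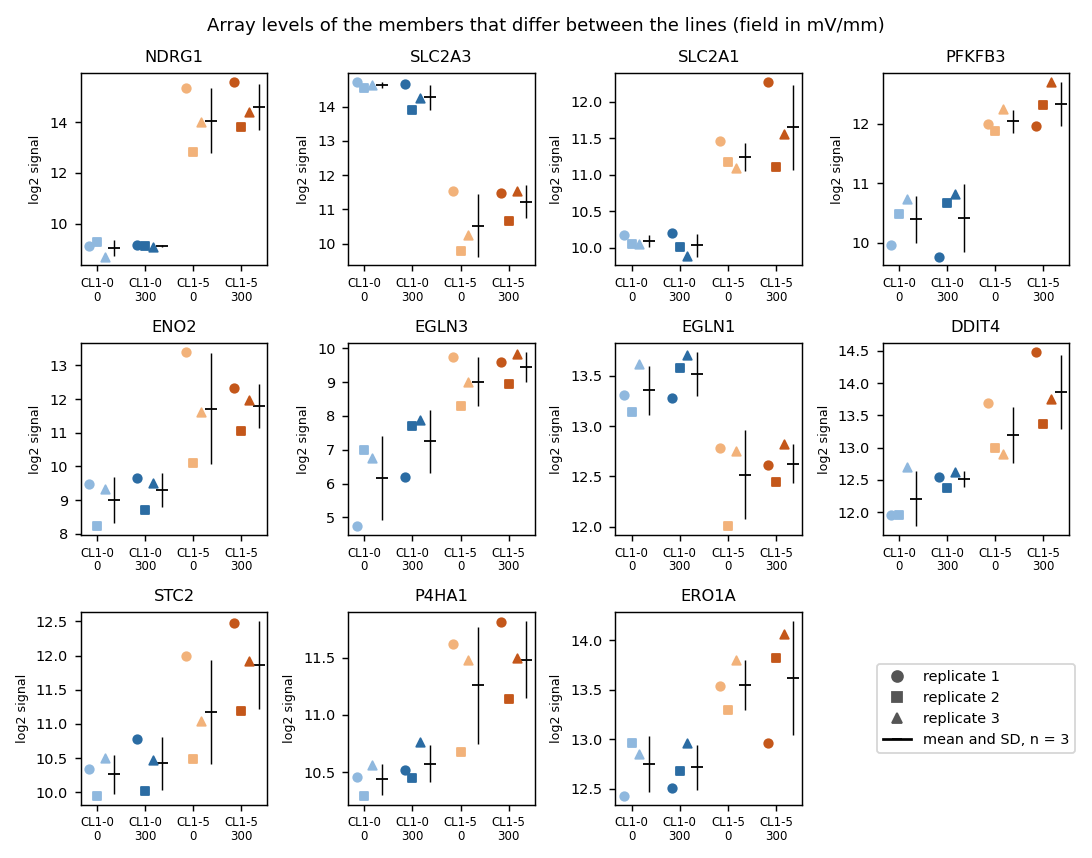
Log2 signal on each array for the 11 members called between the lines, by line and field (0 or 300 mV/mm, horizontal axis). Symbols mark the replicate number, black bars the mean and SD of 3 arrays, and each vertical axis has its own range, starting above 0. SLC2A3 and EGLN1 sit lower in CL1-5, and the other 9 genes sit higher.

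Of the 16 glycolytic enzymes, 2 were called in each setting, PFKFB3 and ENO2, both higher in CL1-5. Their share, 12.5%, was below the 18% and 19.4% of all genes. With the block there were 4 without a field (25%, all genes 35.6%) and 7 under it (43.8%, all genes 38.1%). PFKFB3 makes fructose 2,6-bisphosphate, the activator of the committing step of glycolysis. It read 9.96, 10.49 and 10.73 in CL1-0 and 11.995, 11.88 and 12.26 in CL1-5 without a field, and 9.77, 10.67 and 10.83 against 11.97, 12.31 and 12.71 under it. CL1-0 and CL1-5 arrays were separate, and replicate 1 was the low array of both CL1-0 groups. CL1-5 was higher by 1.65 ± 0.31 (3.14-fold, adjusted p = 0.00288) and 1.91 ± 0.31 (3.75-fold, adjusted p = 0.00110). PFKFB4, a related enzyme, differed by 0.24 ± 0.63 (adjusted p = 0.860) and 0.72 ± 0.63 (adjusted p = 0.487, with the block 0.0275).

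ENO2, the enolase best known from neurons, read 9.47, 8.22 and 9.34 in CL1-0 and 13.41, 10.12 and 11.61 in CL1-5 without a field, and 9.67, 8.72 and 9.51 against 12.33, 11.06 and 11.98 under it. The lines did not overlap, although the SD of the CL1-5 arrays without field was 1.65. The difference was 2.70 ± 0.68 (6.51-fold, adjusted p = 0.0161) and 2.49 ± 0.68 (5.62-fold, adjusted p = 0.0229). The call without a field ended without replicate 2 of CL1-0 (adjusted p = 0.0698) and in a fit of only the 2 groups compared (0.0507). The call under it ended when replicate 2 or 3 of CL1-0 was left out or replicate 1 or 3 of CL1-5 (0.0543 to 0.0888). ENO1, the common enolase, differed by 0.14 ± 0.25 and 0.29 ± 0.25 and was not called. Its 4 probe sets ran from 0.14 to 0.79 without a field and from −0.05 to 0.38 under it. HK1, the housekeeping hexokinase that starts glycolysis, differed by 1.07 ± 0.52 (adjusted p = 0.202, with the block 0.000472) and 1.28 ± 0.52 (0.113, with the block 0.000118). Its arrays fell by replicate: replicate 1 read 12.28 and 12.34 in CL1-0 and 13.86 in both CL1-5 groups, and the other arrays 11.28 to 11.48 and 11.94 to 12.71. HK2, the inducible hexokinase, differed by 0.06 ± 0.32 and 0.18 ± 0.32. PKM, pyruvate kinase, differed by 0.62 ± 0.43 (0.392, with the block 0.00662) and 0.59 ± 0.43 (0.395, with the block 0.00818), and GPI, glucose phosphate isomerase, by 0.19 ± 0.44 and 0.42 ± 0.44 (0.562, with the block 0.0252).

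The differences of ALDOA, GAPDH, PGK1, PGAM1 and LDHA, which carry sugar phosphates on to lactate, lay between −0.05 and 0.18 without a field and between 0.04 and 0.34 under it, with SEs of 0.18 to 0.32, and the arrays of these 5 overlapped between the lines. For PGK1 another of its 6 probe sets was called higher in CL1-5 without a field (0.54 ± 0.14, adjusted p = 0.0266 by limma over all probe sets). ALDOC, an aldolase best known from brain, and PFKP, the platelet phosphofructokinase, lay between −0.14 and 0.10, and their arrays overlapped too. The second probe set of PFKP, with group means of 3.41 to 6.33, was called lower in CL1-5 under the field (−2.49 ± 0.66, adjusted p = 0.0251), so that its 2 probe sets disagreed. TPI1, triose phosphate isomerase, differed by −0.12 ± 0.18 and −0.47 ± 0.18 (adjusted p = 0.736 and 0.0979, with the block 0.0490 under the field). It read 14.69, 14.70 and 14.64 in CL1-0 and 14.82, 14.39 and 14.45 in CL1-5 without a field, and 14.77, 14.71 and 14.80 against 13.87, 14.57 and 14.44 under it. The lines overlapped without a field, and under it all CL1-5 arrays were below all CL1-0 arrays, replicate 1 by the widest margin. PDK1 and PDK3, kinases that inhibit pyruvate dehydrogenase, differed by −0.31 ± 0.36 and −0.63 ± 0.40 without a field. Under it they differed by −0.23 ± 0.36 and −0.60 ± 0.40, and neither was called. The mitochondrial proteins BNIP3 and BNIP3L, receptors for mitophagy, and FAM162A, a mitochondrial protein induced by low oxygen, differed by −0.12 to 0.28. For FAM162A the probe sets disagreed: of 5, 1 was called lower in CL1-5 without a field (−1.53) and 2 under it (down to −1.32), so its direction is uncertain.

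Of the 2 EGLN oxygen sensors, EGLN3 was higher and EGLN1 lower in CL1-5. EGLN3 (PHD3) read 4.74, 7.003 and 6.74 in CL1-0 and 9.73, 8.30 and 9.02 in CL1-5 without a field, and 6.18, 7.69 and 7.87 against 9.59, 8.95 and 9.82 under it. The lines did not overlap, and replicate 1 of CL1-0 without field was below its array's median. The difference was 2.85 ± 0.63 (7.23-fold, adjusted p = 0.00754) and 2.21 ± 0.63 (4.62-fold, adjusted p = 0.0275), and the first was 2.43 when values under the array median were raised to it. The call under the field ended without replicate 1 of CL1-0 or replicate 1 or 3 of CL1-5 (0.0681 to 0.0993). EGLN1 (PHD2), the main oxygen sensor of most cells, read 13.31, 13.14 and 13.62 in CL1-0 and 12.79, 12.005 and 12.76 in CL1-5 without a field, and 13.28, 13.58 and 13.71 against 12.61, 12.45 and 12.83 under it. Every CL1-5 array was below every CL1-0 array of the same setting. The difference was −0.84 ± 0.23 (adjusted p = 0.0255) and −0.89 ± 0.23 (adjusted p = 0.0182). The call without a field ended when replicate 1 or 3 of CL1-0 was left out or replicate 2 of CL1-5 (0.0534 to 0.106), or in a fit of only the 2 groups compared (0.0679), the call under it when replicate 2 or 3 of CL1-0 was left out or replicate 2 of CL1-5 (0.0614 to 0.0758), and both with the mean of its probe sets (0.243 and 0.194).

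The other regulators were not called without the block. KDM3A, a histone demethylase, differed by −1.16 ± 0.54 (adjusted p = 0.179, with the block 0.000647) without a field and by −0.42 ± 0.54 (0.648) under it. MXI1, a partner of MAX that opposes MYC, differed by 0.54 ± 0.57 and 1.01 ± 0.57 (0.261 under the field, with the block 0.00337). The demethylase KDM4B and the ankyrin repeat protein ANKRD37 differed by −0.22 ± 0.35 and −0.01 ± 0.44 without a field and by −0.04 ± 0.35 and 0.77 ± 0.44 under it.

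Both enzymes of the endoplasmic reticulum were called under the field. P4HA1, the catalytic subunit of collagen prolyl hydroxylase, read 10.46, 10.29 and 10.57 in CL1-0 and 11.62, 10.67 and 11.48 in CL1-5 without a field, and 10.52, 10.45 and 10.76 against 11.81, 11.14 and 11.50 under it. All CL1-5 arrays were above all CL1-0 arrays. The difference was 0.82 ± 0.26 (adjusted p = 0.0521, with the block 0.00297) and 0.91 ± 0.26 (adjusted p = 0.0315). The call under the field ended without any 1 of the 3 CL1-0 arrays or replicate 1 or 3 of CL1-5 (0.0554 to 0.103), and with replicates 2 and 3 only (0.0588). ERO1A, the oxidase that drives disulfide formation, read 12.43, 12.96 and 12.85 in CL1-0 and 13.54, 13.29 and 13.80 in CL1-5 without a field, and 12.51, 12.68 and 12.96 against 12.96, 13.82 and 14.06 under it. The lines did not overlap, by a narrow margin under the field. The difference was 0.80 ± 0.27 (adjusted p = 0.0651, with the block 0.00495) and 0.90 ± 0.27 (adjusted p = 0.0372). The call under the field ended in 11 of 23 alternatives, without any 1 of the CL1-0 arrays under field, replicate 3 of CL1-0 without field or replicate 2 or 3 of CL1-5 under field (0.052 to 0.142), with the mean of its 3 probe sets (0.478, adjusted p = 0.215), with arrays centred on their median (0.0681), without the filter (0.0507), without the variance trend (0.0641) and in a fit of only the 2 groups compared (0.0854).

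Around the members, both alpha subunits of HIF that were tested, EPAS1 and HIF1A, were higher in CL1-5 in each setting. Of 11 tested genes of the HIF machinery, 3 were higher and 1 lower in CL1-5 in each setting, with the block 8 in each. The shares called were 36.4% in each setting and 72.7% with the block. Over all genes they were 18% without a field and 19.4% under it, and 35.6% and 38.1% with the block. EPAS1 (HIF-2 alpha) rose from 8.87 ± 0.33 (SD, n = 3) in CL1-0 to 13.22 ± 0.31 in CL1-5 without a field, a difference of 4.34 ± 0.33 (SE, adjusted p = 4.35e-06), and by 4.50 ± 0.33 (adjusted p = 3.54e-06) under it. HIF1A rose from 13.28 ± 0.34 to 14.77 ± 0.09, by 1.49 ± 0.23 (adjusted p = 0.000688), and by 1.39 ± 0.23 (adjusted p = 0.00111) under the field. CITED2, a competitor of HIF for its coactivator, was lower in CL1-5, at −1.56 ± 0.32 (adjusted p = 0.00503) and −1.399 ± 0.32 (adjusted p = 0.00915). ARNT2, a dimer partner, was higher without a field (1.46 ± 0.41, adjusted p = 0.0296) and ELOB, a subunit of the ubiquitin ligase, under it (adjusted p = 0.00873). ARNT, the main partner of the alpha subunits, was not called, at −0.59 ± 0.22 (adjusted p = 0.0877) and −0.62 ± 0.22 (0.0726). HIF3A and EGLN2 were too low to be tested.

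Of 26 other HIF targets, 7 were higher and 1 lower in each setting, and with the block 7 and 2 without a field and 11 and 1 under it. The shares called were 30.8% in each setting, against 18% and 19.4% of all genes. With the block they were 34.6% and 46.2%, against 35.6% and 38.1% of all genes, so that without a field the block share was near that of all genes. The collagen cross-linking enzyme LOX differed by 4.92 ± 0.42 and 5.26 ± 0.42, and STC1, a relative of STC2, by 4.48 ± 0.43 and 4.73 ± 0.43. LOXL2, a relative of LOX, differed by 2.71 ± 0.38 and 2.14 ± 0.38, and IGFBP3, a carrier of insulin-like growth factors, by 2.48 ± 0.36 and 2.77 ± 0.36. The 1 lower gene, named after its values were seen, was NAMPT, an enzyme of NAD synthesis, at −1.18 ± 0.38 and −1.19 ± 0.38 (adjusted p = 0.0491 and 0.0452). Of 10 other glycolysis isoforms, 0 were higher, and 3 (30%) were lower without a field and 2 (20%) under it (with the block 60% and 40%). These were the muscle enolase ENO3 (−3.13 ± 0.29 and −2.29 ± 0.29), PFKFB2 (−2.40 ± 0.44 and −2.58 ± 0.44) and, without a field, the muscle phosphofructokinase PFKM (−0.65 ± 0.18). Of 8 genes of lactate and pyruvate handling 1 was higher (12.5%), with the block 3 (37.5%) and 2 (25%) called. The 1 higher gene was PDP1, the phosphatase that opposes the PDK kinases (2.48 ± 0.35 and 2.01 ± 0.35). Of 9 genes of the pentose phosphate route and gluconeogenesis, 1 was higher and 2 lower without a field. Under it 0 were higher and 3 lower (33.3% called in each setting, with the block 6, or 66.7%, and 9, or 100%). PGD, an NADPH-producing dehydrogenase, was lower, at −1.56 ± 0.15 and −1.83 ± 0.15.

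The field gave no call among the members in either line. In CL1-5 limma called 0 of 13838 genes (0%), and 253 genes (1.83%) and 0 members had an unadjusted p under 0.05. In CL1-0 it also called 0 (0%), and 133 genes (0.961%) and 0 members had an unadjusted p under 0.05. Most members nevertheless had a higher mean under the field in CL1-5: 36 of 39 differences were above 0, against 48.9% of all genes, with a median of 0.26 on the log2 scale against −0.01 over all genes. None of the 39 had field arrays all above or all below the arrays without field, which held for 5.68% of all genes. In CL1-0 the median was 0.08 against 0.01 over all genes, and 30 of 39 were above 0 against 52.5%. There the groups of 1 member, TPI1, did not overlap (0.08 ± 0.18), against 3.46% of all genes.

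Compared within replicate pairs, the median of the members in CL1-5 was 0.18, 0.44 and 0.29 in pairs 1, 2 and 3, with 23, 37 and 32 of 39 above 0, and 19 members were above 0 in all 3 pairs (48.7%) against 14.2% of all genes. In CL1-0 the pair medians were 0.04, 0.14 and 0.13, and 11 members (28.2%) were above 0 in all 3 pairs, against 15% of all genes. With the replicate block 0 members had an adjusted p under 0.05 in either line. In that fit 9 members had an unadjusted p under 0.05 in CL1-5, all higher: DDIT4, ADM, HILPDA, SLC2A3, ANKRD37, STC2, SLC2A1, KDM3A and PFKFB4. All of these had an adjusted p of 0.681, and 7.1% of all genes passed, 3.13% higher. In CL1-0 0 members and 2.3% of all genes passed.

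The medians depend on single arrays. In CL1-5, without replicate 2 of the arrays without field the median was −0.02, and without replicate 1 of CL1-5 under field 0.04, while it was 0.54 without replicate 1 of CL1-5 without field and 0.44 without replicate 2 of CL1-5 under field. With replicate 1 left out of all groups it was 0.35, with 39 of 39 members above 0. With quantile normalization 30 members were above 0 in CL1-5, and with arrays centred on their median 24 were in CL1-0, where the median was then 0.018. The CL1-0 median was 0.0078 without replicate 2 of CL1-0 without field and 0.14 without its replicate 1.

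**Figure D3:**
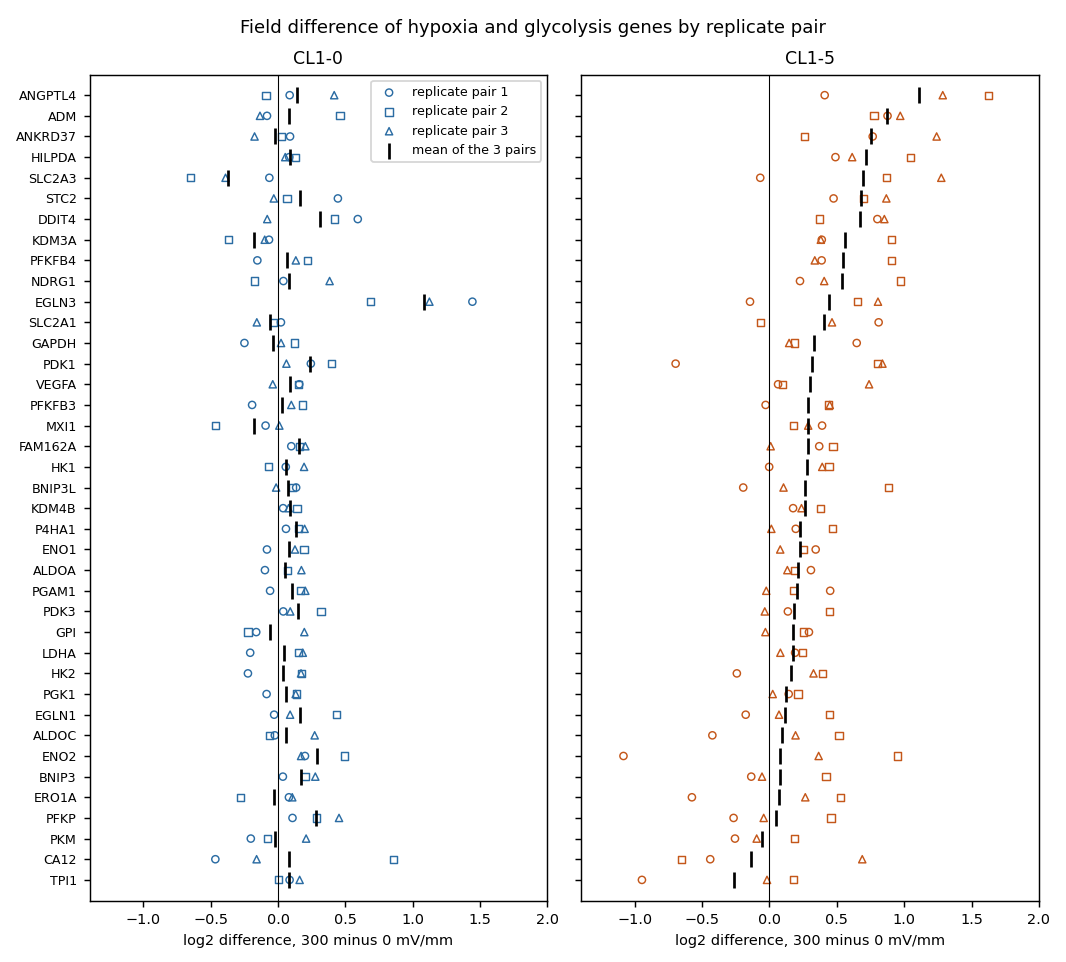
Field difference (300 minus 0 mV/mm, log2) of the 39 members in CL1-0 (left) and CL1-5 (right) for each replicate pair (open symbols) and their mean (black bar), ordered by the mean in CL1-5. In CL1-5 36 means lie above 0 and the pairs scatter widely, and in CL1-0 the means of all members but EGLN3, DDIT4 and SLC2A3 lie between −0.18 and 0.29.

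The members with the smallest p-values for the field in CL1-5 were DDIT4, ADM, HILPDA, SLC2A3, ANKRD37 and STC2. DDIT4 read 13.69, 12.99 and 12.90 without and 14.49, 13.36 and 13.76 under the field, a difference of 0.68 ± 0.31 (1.60-fold, 95% interval 0.00 to 1.35, adjusted p = 0.9996). It was higher in all 3 pairs, by 0.80, 0.37 and 0.85, and the groups overlapped. ADM read 13.60, 12.10 and 12.37 without and 14.48, 12.88 and 13.34 under the field, a difference of 0.87 ± 0.43 (interval −0.06 to 1.81). Its pair differences, 0.88, 0.78 and 0.97, were the closest to each other of these 6, while the groups overlapped. HILPDA read 12.17, 10.49 and 11.14 without and 12.66, 11.53 and 11.75 under the field, a difference of 0.72 ± 0.39 (interval −0.13 to 1.56). It too was higher in all 3 pairs.

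SLC2A3 read 11.55, 9.79 and 10.25 without and 11.48, 10.66 and 11.53 under the field. The difference was 0.69 ± 0.39 (interval −0.16 to 1.55), with pair 1 at −0.07 and the others at 0.87 and 1.28. Its 3 probe sets ran from 0.06 to 0.83. ANKRD37 read 11.74, 10.35 and 10.70 without and 12.51, 10.61 and 11.94 under the field, a difference of 0.76 ± 0.44 (interval −0.21 to 1.72). STC2 differed by 0.68 ± 0.40 (interval −0.19 to 1.55), with all 3 pairs above 0. The largest mean difference was that of ANGPTL4, 1.11 ± 0.80, with 0.41, 1.62 and 1.29 in the pairs. These 7 members had an adjusted p of 0.9996 by limma, and the 95% intervals of the 6 with the smallest p reach up to 1.35 to 1.81, so changes of that size are not excluded by 3 arrays a group. Of the 16 glycolytic enzymes 14 had a mean above 0 in CL1-5, with a median of 0.17, and all 16 were above 0 in pair 2 but 8 in pair 1. TPI1, PKM and CA12 had means below 0 (−0.26, −0.06 and −0.13). For TPI1 2 of its 3 probe sets were above 0, for PKM 1 of 2 and for CA12 0 of 3.

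In CL1-0 the smallest p-values were those of EGLN3, DDIT4, SLC2A3, BNIP3, EGLN1 and PFKP, all with an adjusted p of 0.9999 by limma. EGLN3 read 4.74, 7.003 and 6.74 without and 6.18, 7.69 and 7.87 under the field, a difference of 1.08 ± 0.63 (2.12-fold, interval −0.28 to 2.45). It was higher in all 3 pairs, by 1.44, 0.69 and 1.12, at signals near the array median, and the groups overlapped. With values under the array median raised to it the difference was 0.66, without replicate 1 of CL1-0 without field it was 0.37, and the other probe set of EGLN3 gave 0.15. DDIT4 differed by 0.31 ± 0.31 (interval −0.37 to 0.99), with 2 of 3 pairs above 0. SLC2A3 differed by −0.37 ± 0.39 (interval −1.22 to 0.49), below 0 in all 3 pairs (−0.06, −0.65 and −0.39). BNIP3 read 13.45, 13.61 and 13.76 without and 13.48, 13.81 and 14.03 under the field, a difference of 0.17 ± 0.22. PFKP read 13.83, 13.02 and 12.96 without and 13.94, 13.31 and 13.41 under it, a difference of 0.28 ± 0.42, and EGLN1 differed by 0.17 ± 0.23. The groups of BNIP3, EGLN1 and PFKP overlapped. Averaged over the lines, DDIT4 had the smallest p of the members (0.49 ± 0.22, adjusted p = 0.999995, the 1 member under 0.05 before adjustment), in a comparison where 0% of genes were called and 0.983% passed an unadjusted p of 0.05. The median of the members there was 0.17, with 36 of 39 above 0 against 50.1% of all genes, and was 0.03 without replicate 2 of CL1-5 without field. FAM162A was among the 6 members with the smallest p there. It read 13.45, 13.37 and 13.55 without and 13.55, 13.53 and 13.75 under the field in CL1-0, and 13.94, 13.10 and 13.77 against 14.31, 13.57 and 13.78 in CL1-5, with overlap in both lines.

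The interaction of field and line, which asks whether the lines respond differently, was called for 0% of genes and for 0 members, and 1.06% of genes passed before adjustment. It was largest in size and smallest in p for SLC2A3, whose response was higher in CL1-5 by 1.06 ± 0.55 (adjusted p = 0.9999); the field difference itself was 0.69 in CL1-5 and −0.37 in CL1-0. TPI1, ADM, ANKRD37, SLC2A1 and HILPDA followed, at −0.35 ± 0.26, 0.79 ± 0.61, 0.78 ± 0.62, 0.46 ± 0.37 and 0.63 ± 0.55, with the same adjusted p. The 3 probe sets of SLC2A3 ran from 0.38 to 1.09 and the 3 of TPI1 from −0.35 to 0.06, so those of TPI1 differed in sign. The 2 of SLC2A1 (0.46 and 0.65) and the 2 of HILPDA (0.62 and 0.63) did not. In CL1-0 the arrays of ADM read 12.54, 12.14 and 12.93 without and 12.46, 12.60 and 12.80 under the field, those of ANKRD37 10.90, 10.73 and 11.18 against 10.99, 10.76 and 11.004, and those of HILPDA 11.52, 11.25 and 11.68 against 11.60, 11.38 and 11.74, with overlap for all 3. The median over the members was 0.16, with 31 of 39 above 0 against 46.9% of all genes. It was −0.08 without replicate 1 of CL1-5 under field and 0.43 without replicate 1 of CL1-5 without field. Quantile normalization left 25 members above 0, as did the mean of the probe sets, and leaving out 1 array in turn gave 14 to 37. The field called 0 genes in each of the other lists, HIF machinery, other HIF targets, other glycolysis isoforms, lactate and pyruvate handling, and pentose phosphate and gluconeogenesis. The smallest p in CL1-5 among the other HIF targets was that of RIOK3, an atypical kinase (0.42 ± 0.19), and in CL1-0 that of LOXL2 (0.70 ± 0.38).

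Within groups, most members varied more among replicates of CL1-5 than of CL1-0, and in CL1-5 they moved together from array to array. The median deviation of the 39 members from their own group mean was 0.65, −0.56 and −0.13 for replicates 1, 2 and 3 of CL1-5 without field, with 37, 0 and 12 of 39 above the mean. Under the field it was 0.47, −0.45 and −0.08, with 32, 3 and 19 above. The CL1-0 medians were smaller, 0.08, −0.20 and 0.00 without a field and 0.05, −0.09 and 0.07 under it. Replicate 1 was therefore the high array and replicate 2 the low one for most members in both CL1-5 groups.

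Replicate 1 was the highest array in both CL1-5 groups for 29 members (74.4%) against 28.3% of all genes, and in both CL1-0 groups for 16 (41.0%) against 27.7%. Replicate 2 was the lowest in both CL1-5 groups for 27 members (69.2%) against 16.1%, and in both CL1-0 groups for 15 (38.5%) against 13.4%. The median SD of a member over 3 arrays was 0.67 in CL1-5 without field and 0.56 under it, against 0.28 and 0.23 in CL1-0, while over all genes it was 0.41, 0.42, 0.38 and 0.36. The SD was larger in CL1-5 than in CL1-0 for 34 members without a field (87.2%, all genes 53.5%) and 31 under it (79.5%, all genes 57.5%). These counts are descriptions, since the members share arrays.

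**Figure D4:**
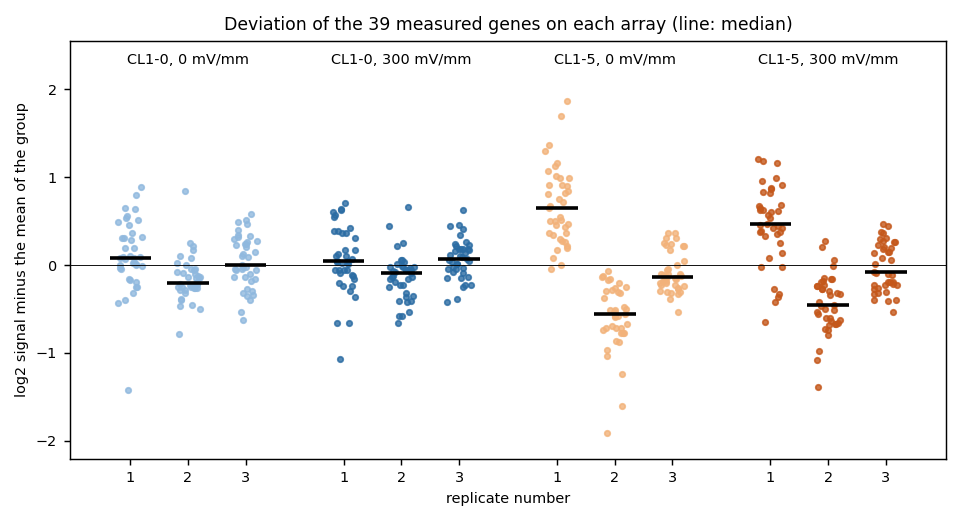
Log2 signal of each of the 39 members (points) minus the mean of its group, on the 12 arrays, by line, field and replicate number; black lines are medians. In both CL1-5 groups replicate 1 lies above 0 (0.65 and 0.47) and replicate 2 below it (−0.56 and −0.45), and in CL1-0 the medians lie between −0.20 and 0.08.

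Averaged over the groups, replicate 1 exceeded replicates 2 and 3 by a median of 0.44 over the members, with 31 of 39 above 0, against −0.07 over all genes. PFKFB4, ANGPTL4, MXI1, HK1 and KDM3A were highest, at 1.48, 1.39, 1.28, 1.24 and 1.19, and EGLN3, PFKFB3, HK2 and ERO1A lowest, at −0.61, −0.56, −0.49 and −0.44. Replicate 1 arrays are those without the dap and 18S signal, and the part of that in these values was not tested. Replicates 2 and 3, which both have the signal, also differed in CL1-5: the median deviation was −0.56 against −0.13 without a field and −0.45 against −0.08 under it. With replicates 2 and 3 only, 12 members (30.8%, all genes 30.9%) were called between the lines without a field and 13 (33.3%, all genes 31.9%) under it, and the medians were −0.02 and 0.10.

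The choice of probe set bears on some members. The 39 members had 92 probe sets above the filter, 14 members with 1 and 25 with several. No called probe set of a called member pointed against it. All 3 probe sets of SLC2A3 were called lower in CL1-5. The other probe sets of EGLN1, EGLN3, ERO1A and STC2 were not called in either setting, nor was that of SLC2A1 without a field. Of the chosen probe sets 18 carry the suffix _s_at and 5 _x_at, which mark oligos shared by transcripts of 1 family or with other genes, so part of their signal, GAPDH, ALDOA, SLC2A3, CA12 and FAM162A included, may come from related transcripts.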

How the data were processed

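The deposited values are linear intensities of 54675 probe sets on 12 arrays made with MAS5, per the submitters' processing notes, of a version not given in the sources used. The mean of each array without its lowest and highest 2% was equal (500.07 to 500.08), and no further scaling was done. The 3691 values under 1 were set to 1 and the deposited intensities were taken to log2. Probe sets with 1 symbol were kept where above their own array's median on at least 3 arrays, and each gene was read from the probe set with the highest mean. The 4 group means were fitted to all 12 arrays with limma version 3.58.1 (eBayes, variance trend) under R version 4.3.3 with data.table (version 1.17.8), with Benjamini-Hochberg adjustment over 13838 genes in each of 6 comparisons. The number of arrays limits the precision, with a median SE of 0.37 for 2 groups. Intervals are 95% intervals of that fit. Steps were tested on simulated data.

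The members and the other gene lists were chosen with earlier results of these data known. All 40 members were eligible to be named. Array values are given for members past the test in any comparison and for the 6 with the smallest p under each field comparison. For each other list at most the 3 called genes with the largest difference in a comparison are named. Where none was called, at most the 1 with the smallest p is named. The HIF machinery was open to be named in full. ANGPTL4, HK1 and CA12 were given array values after these were seen. The numbers of the replicates were taken as pairs because all 18 correlations between same-numbered arrays, after removal of group means, exceeded 0.1. They were 0.415 to 0.615 for replicate 1, 0.258 to 0.427 for replicate 2 and 0.188 to 0.366 for replicate 3. The own number correlated highest in 6 of 6 pairs of groups for replicates 1 and 2, but in 3 of 6 for replicate 3. Between the CL1-5 groups replicate 3 gave 0.188, against 0.289 for another number. In every pair of groups, replicates 2 and 3 also exceeded 0.1 with another number, so the rule separates them poorly. The labels do not state a pairing, and the number also marks the arrays without the dap signal, so pair and batch cannot be told apart. Alternatives were quantile normalization, centred arrays, a pseudocount at the 10th percentile of the signals (5.05), values raised to the array median, testing all genes, a filter at the 60th percentile on 6 arrays, averaging the probe sets of a gene, dropping the variance trend, fitting only the compared groups, the replicate block, replicates 2 and 3 only, and leaving out each array.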

Additional observations from a re-analysis of the deposited data

Results flagged for a closer look

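KDM3A, a histone demethylase, was higher under the field in all 3 CL1-5 pairs (0.39, 0.90 and 0.38) and lower in all 3 CL1-0 pairs (−0.07, −0.37 and −0.10). It is listed because its pairs moved in opposite directions in the lines. The response in CL1-5 minus that in CL1-0, 0.736 ± 0.77 on the log2 scale (SE), was tested as an interaction and did not pass (limma, adjusted p = 0.9999, with the replicate block 0.900). Groups of 3 arrays were not tested for outlying arrays.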

How the results depend on the processing

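The replicate block raised the calls among the members from 8 to 15 without a field and from 11 to 20 under it, and those over all genes from 2487 to 4921 and from 2691 to 5277; with replicates 2 and 3 only, 4280 and 4414 genes were called. The block changed no call of the field comparisons. Leaving out 1 array in turn gave 6 to 10 and 6 to 14 calls among the members, with medians of −0.09 to 0.40 and 0.11 to 0.63. For the field the medians ran from −0.016 to 0.54 in CL1-5, 0.0078 to 0.14 in CL1-0 and 0.03 to 0.30 averaged over the lines, and from −0.08 to 0.43 for the difference between the lines. Arrays centred on their median gave 0.018 for CL1-0. The counts of members called by any field comparison stayed at 0 in all alternatives run. Single members were followed for 46 differences of 18 members only (the line differences of the 11 called, and the 6 smallest p of each field comparison). Of their 1058 values under 23 alternatives, 993 kept their direction and side of the threshold, 53 lost a call and 0 reversed. The field differences had no call to lose and all 53 losses were of line differences, so the 993 overstate how firm the calls were. A call was gained by 12 values, all of ERO1A, P4HA1 and STC2. The other members gained by the block are not among these. With 3 arrays a group, some differences well above their SE were not called, so the lack of a call does not exclude a difference.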
